A study of Caenorhabditis elegans with 8 samples.

Results

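Chemical synapses work by calcium-triggered fusion of transmitter-filled vesicles with the plasma membrane. The fusion is driven by SNARE proteins, prepared by priming factors at the active zone, opened by voltage-gated calcium channels and followed by recovery of the vesicle membrane. Small transmitters are made by dedicated enzymes, loaded into vesicles by transporters and read by receptors on the next cell. Neuropeptides travel in dense core vesicles, where they are cut out of longer precursors. Much of this machinery was first named in worms with uncoordinated movement (unc), and in Caenorhabditis elegans it serves neurons, muscle and some gland-like cells.

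The synaptic release and neurotransmitter set held 38 genes of the 17826 in the deposited table, and all 38 were found. The genes were taken by symbol from a list of known functions, chosen with earlier results of these data known. They comprised 18 genes of vesicle release, 12 of transmitter synthesis, loading and breakdown, 7 receptor and channel genes, and rgef-1, a guanine nucleotide exchange factor gene used as a marker of all neurons. Polyadenylated RNA of whole N2 (wild-type) worms was compared between 4 samples kept on 50 µM zidovudine, a thymidine analogue and inhibitor of reverse transcriptase, and 4 samples kept on the DMSO vehicle. Exposure lasted 24 h, starting at larval stage 4 and ending on day 1 of adulthood, and the protocol places 5-fluorouracil on the plates of both groups. Each sample was a pool of whole animals, so neurons contributed a small part of the RNA, and nothing in the labels ties a sample to a culture of its own. P-values therefore measure the spread between these 8 samples, which may be technical.

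The 8 libraries held 30449021 to 56930820 reads assigned to genes. DMSO 4 alone differed in the leading code of its sample description, which is read here as the flow cell. It had 0 reads for 8.24% of genes, against 1.07% to 2.17% in the others. Values are log2 CPM, reads scaled to library size, and differences are zidovudine minus DMSO on that scale. Of the 38 genes, 33 averaged 0 log2 CPM or more and were tested. The other 5 were cat-2, tph-1, unc-47, cat-1 and glr-1.

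No gene of the set passed an adjusted p of 0.05 (limma, adjusted over the 12382 genes tested), where 0.170% of all genes did, 7 higher and 14 lower with zidovudine. Leaving out 1 library gave 3 (without DMSO 1) to 41 (without zidovudine 2) such genes, and none of the set. The smallest limma adjusted p in the set was 0.163, that of unc-2. At an unadjusted p under 0.05, 9 of the 33 genes were higher and 0 were lower with zidovudine, and the background over all tested genes was 6.28% higher and 5.48% lower. In 7 of the 33 genes all 4 zidovudine libraries lay above all 4 DMSO libraries, and 3.84% of all tested genes were placed so. No gene of the set lay wholly below, against 2.82% of all genes. The log2 fold change was above 0 for 25 genes (75.8%) and below 0 for 8, with a median of 0.11, beside 52.3% above 0 and a median of 0.0082 over all tested genes. These counts describe the set and carry no test of their own. In whole worms, a change in the number of cells of a type and a change in RNA per cell cannot be told apart.

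**Figure D1:**
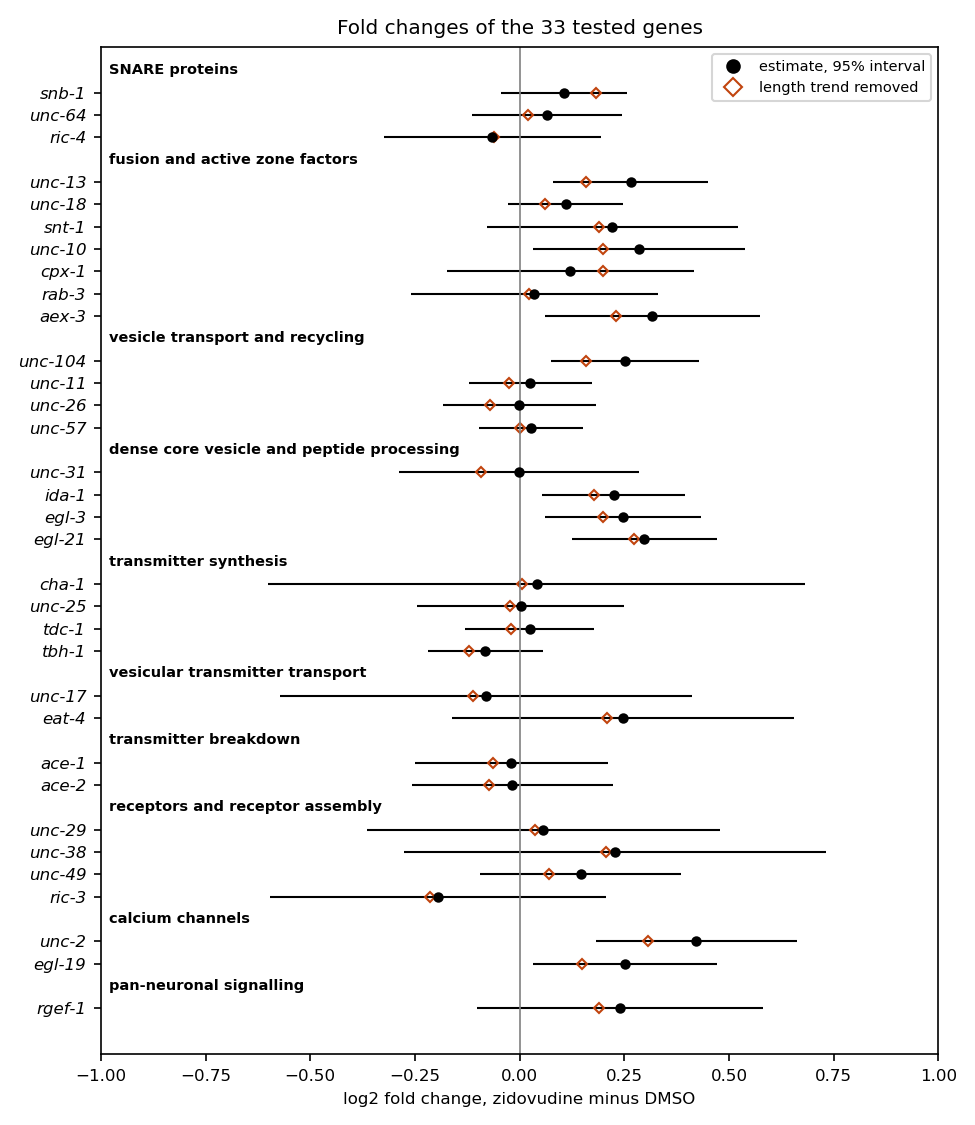
Log2 fold change (x axis, zidovudine minus DMSO) of the 33 tested genes, grouped by role down the page. Black points and bars are limma estimates with 95% intervals, and open diamonds are the estimates after each library's trend on exon length was removed; 9 intervals lie wholly above 0, most of them among fusion factors, peptide processing and calcium channels.

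Levels ranged widely within the set. Per kilobase of exon, snb-1, the gene for the vesicle SNARE synaptobrevin, was highest at a mean of 8.004 log2 CPM per kb over the 8 libraries. It was followed by tdc-1 at 7.30 and tbh-1 at 6.61 log2 CPM per kb, the genes for tyrosine decarboxylase, which makes tyramine, and for tyramine beta-hydroxylase, which turns tyramine into octopamine. Both enzymes are known from a few neurons and from the sheath cells of the somatic gonad, and these data do not separate the sources. The endophilin gene unc-57 (6.21 log2 CPM per kb) and the clathrin adaptor gene unc-11 (4.90), both for recovery of vesicle membrane, came next. The median of the 33 tested genes was 2.07 log2 CPM per kb, against 3.84 for all tested genes. Genes found in all or most neurons lay on both sides of that median. Beside snb-1, the SNARE genes ric-4 and unc-64 were above it, at 3.66 and 3.08 log2 CPM per kb. The vesicle GTPase gene rab-3 was below it at 1.67 log2 CPM per kb, as were the synaptotagmin gene snt-1 at 1.38 and rgef-1 at 0.42. The 5 untested genes, which mark smaller neuron classes, had the lowest levels of the 38, down to -2.83 log2 CPM per kb for tph-1 and -2.85 for glr-1.

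**Figure D2:**
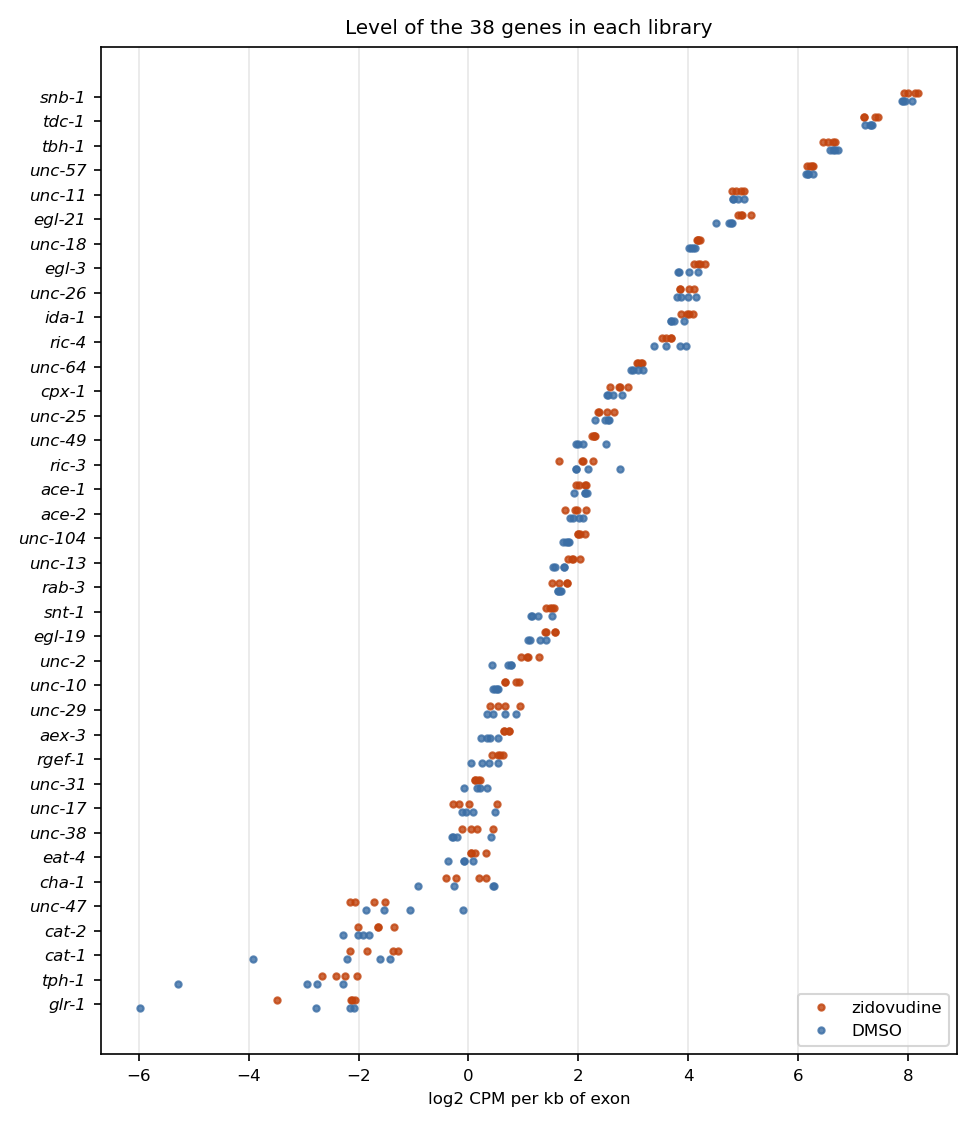
Level of each of the 38 genes in each library (x axis, log2 CPM per kb of exon), ordered from highest to lowest mean, with zidovudine libraries in orange above DMSO libraries in blue. The points of a gene lie close together for abundant genes such as snb-1 and unc-57 and spread widely for the 5 genes at the foot, where DMSO 4 holds 0 reads of tph-1 and glr-1.

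The 3 SNARE genes differed little between the groups. snb-1 (chromosome V, 6655562 to 6656501, WBcel235) was at 7.61, 7.87, 7.82 and 7.69 log2 CPM in zidovudine libraries 1 to 4, against 7.76, 7.64, 7.57 and 7.59 log2 CPM in DMSO libraries 1 to 4. The ranges overlap, with zidovudine 2 and 3 above every DMSO library, and the log2 fold change was 0.11 (95% interval -0.044 to 0.26, limma adjusted p = 0.569). unc-64, which encodes syntaxin in the plasma membrane, had a log2 fold change of 0.066 (-0.11 to 0.25). ric-4, which encodes the third SNARE, SNAP-25, had one of -0.065 (-0.32 to 0.19); its DMSO libraries spread from 3.68 log2 CPM in DMSO 2 to 4.27 in DMSO 1, around the zidovudine range of 3.83 to 4.00.

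All 7 genes of the fusion and active zone factors had fold changes above 0, with a median of 0.22. Their products bring vesicles to the release site and ready them for fusion. unc-13 encodes the priming factor that opens syntaxin and sits on chromosome I (7422785 to 7454116, WBcel235). It was at 4.67, 4.59, 4.80 and 4.69 log2 CPM in zidovudine libraries 1 to 4, against 4.51, 4.51, 4.36 and 4.31 in DMSO libraries 1 to 4. The groups do not overlap, and the difference of 0.27 (SE 0.087, a fold of 1.20) had a limma adjusted p of 0.257.

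unc-10 encodes RIM, a scaffold of the active zone that binds RAB-3. It was at 2.97, 3.18, 2.97 and 3.23 log2 CPM in zidovudine libraries 1 to 4, against 2.83, 2.75, 2.84 and 2.79 in DMSO libraries 1 to 4. The DMSO libraries were tight and all lay below the zidovudine libraries, among which 2 and 4 were high (log2 fold change 0.29, SE 0.12, limma adjusted p = 0.371). aex-3, which encodes the exchange factor that activates RAB-3, was at 2.95, 3.03, 2.95 and 3.03 log2 CPM in zidovudine libraries 1 to 4, against 2.69, 2.53, 2.83 and 2.64 in DMSO libraries 1 to 4. Here too the groups do not overlap, with DMSO 2 the lowest (log2 fold change 0.32, SE 0.12, limma adjusted p = 0.317). rab-3 itself had a log2 fold change of 0.035 (95% interval -0.26 to 0.33), with zidovudine 2 and 4 above and zidovudine 1 below the DMSO libraries.

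unc-18 encodes the syntaxin-binding partner of the SNARE proteins. It was at 5.58, 5.62, 5.57 and 5.58 log2 CPM in zidovudine libraries 1 to 4, against 5.46, 5.43, 5.53 and 5.49 in DMSO libraries 1 to 4. The separation was complete but small, with a log2 fold change of 0.11 (95% interval -0.027 to 0.25, limma adjusted p = 0.525). snt-1, for the calcium sensor of release, had a log2 fold change of 0.22 (-0.078 to 0.52); DMSO 3, at 2.46 log2 CPM, lay inside the zidovudine range of 2.36 to 2.50, while the other DMSO libraries were at 2.09 to 2.21. cpx-1 encodes complexin, which binds the assembled SNARE complex, and had a log2 fold change of 0.12 (-0.17 to 0.42).

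Of the genes that move vesicles and recover their membrane, unc-104 stood at a higher level with zidovudine, and the 3 endocytic genes were near 0. unc-104 (chromosome II, 6994987 to 7010625, WBcel235) encodes the kinesin that carries vesicle precursors down the axon. It was at 4.45, 4.46, 4.59 and 4.50 log2 CPM in zidovudine libraries 1 to 4, against 4.30, 4.28, 4.24 and 4.18 in DMSO libraries 1 to 4. The groups do not overlap, and the log2 fold change was 0.25 (SE 0.083, limma adjusted p = 0.263). The 95% intervals of the endocytic genes all included 0 and spanned -0.18 to 0.18 at the widest. They overlapped the unc-104 interval of 0.075 to 0.43. The log2 fold change of unc-11 was 0.026 (95% interval -0.12 to 0.17) and that of unc-57 was 0.027 (-0.097 to 0.15). unc-26, for the lipid phosphatase synaptojanin, was at -0.00025 (-0.18 to 0.18).

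In the dense core vesicle pathway, both genes of the set for enzymes that mature neuropeptides were at higher levels with zidovudine. So was the vesicle membrane protein gene ida-1. All had unadjusted p-values under 0.05 that did not pass after adjustment. egl-21 (chromosome IV, 10478442 to 10481844, WBcel235) encodes carboxypeptidase E, which trims the cut ends of peptides. It was at 5.72, 5.67, 5.74 and 5.91 log2 CPM in zidovudine libraries 1 to 4, against 5.27, 5.55, 5.50 and 5.53 in DMSO libraries 1 to 4. All zidovudine libraries lay above all DMSO libraries, of which DMSO 1 was low, and the log2 fold change was 0.30 (SE 0.082, a fold of 1.23, limma adjusted p = 0.173). With sample weights, in which the more variable libraries count for less, egl-21 was past the threshold (log2 fold change 0.31, limma adjusted p = 0.0487). In that setting 148 of all tested genes passed, against 21 in the main test. The limma adjusted p of egl-21 ran from 0.0487 to 0.469 over the 19 other settings.

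egl-3 encodes the proprotein convertase that makes the first cut in neuropeptide precursors. It was at 5.47, 5.58, 5.54 and 5.67 log2 CPM in zidovudine libraries 1 to 4, against 5.17, 5.19, 5.38 and 5.54 in DMSO libraries 1 to 4. DMSO 4 reached into the zidovudine range and the other 3 DMSO libraries lay below it (log2 fold change 0.25, SE 0.088, limma adjusted p = 0.282). ida-1, for a phosphatase-like protein of the dense core vesicle membrane, was at 5.35, 5.24, 5.38 and 5.45 log2 CPM in zidovudine libraries 1 to 4, against 5.12, 5.05, 5.30 and 5.05 in DMSO libraries 1 to 4. Only DMSO 3 overlapped the zidovudine range (log2 fold change 0.23, SE 0.080, limma adjusted p = 0.282). unc-31, for the factor that primes dense core vesicles for fusion, was at 2.54 ± 0.051 log2 CPM with zidovudine and 2.54 ± 0.18 with DMSO (SD, n = 4 each), a log2 fold change of -0.0020 (95% interval -0.29 to 0.28).

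**Figure D3:**
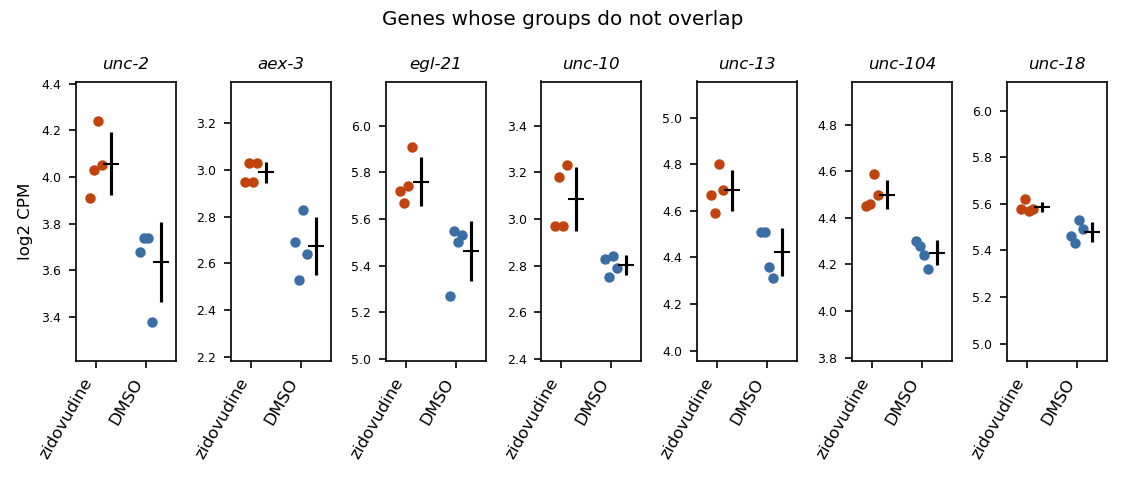
Values of the 7 genes whose zidovudine libraries (orange, left) all lay above their DMSO libraries (blue, right), in log2 CPM with an axis of equal span for each gene. Points are libraries 1 to 4 from left to right, and bars beside them are the mean and SD (n = 4); the gap between the groups is widest for unc-2, unc-104 and unc-10 and narrowest for unc-18.

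The 4 tested genes for transmitter synthesis had log2 fold changes of -0.082 to 0.041, the narrowest range of the classes with at least 4 tested genes. tdc-1, with at least 11671 reads in each library, was at 8.51, 8.52, 8.71 and 8.77 log2 CPM in zidovudine libraries 1 to 4, against 8.62, 8.65, 8.63 and 8.53 in DMSO libraries 1 to 4. Zidovudine 3 and 4 lay above and zidovudine 1 and 2 below the DMSO libraries, and the log2 fold change was 0.024 (95% interval -0.13 to 0.18). tbh-1 had a log2 fold change of -0.082 (-0.22 to 0.055), and 17.1% of its exon sequence overlaps another gene on the opposite strand. unc-25, for glutamic acid decarboxylase, which makes GABA, had one of 0.0024 (-0.25 to 0.25).

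The genes of the cholinergic locus were low and variable. cha-1, for choline acetyltransferase, and unc-17, for the vesicular acetylcholine transporter, lie on chromosome IV and share 66 nt of exon on the same strand, so reads there cannot be assigned to either. cha-1 had 102, 74, 70 and 124 reads in zidovudine libraries 1 to 4, against 66, 100, 84 and 46 in DMSO libraries 1 to 4. unc-17 was at 0.96, 0.67, 0.77 and 1.46 log2 CPM in zidovudine libraries 1 to 4, against 1.02, 0.83, 0.90 and 1.43 log2 CPM in DMSO libraries 1 to 4. In DMSO 4, cha-1 was at its lowest of the 8 libraries (0.14 log2 CPM) and unc-17 near its highest (1.43 log2 CPM). The intervals were wide, -0.60 to 0.68 for cha-1 around 0.041 and -0.57 to 0.41 for unc-17 around -0.080. At this depth and spread the values are compatible with any difference within those intervals. Without DMSO 4 the estimate for cha-1 was -0.24 and that for unc-17 was 0.049.

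eat-4, which encodes the vesicular glutamate transporter, was at 1.28 ± 0.13 log2 CPM with zidovudine and 1.03 ± 0.19 with DMSO (SD, n = 4 each), a log2 fold change of 0.25 (95% interval -0.16 to 0.65). Both genes of the set for acetylcholinesterase, which ends the cholinergic signal, were near 0, at -0.020 (-0.25 to 0.21) for ace-1 and -0.017 (-0.26 to 0.22) for ace-2.

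The 5 untested genes had few reads. cat-2, for the tyrosine hydroxylase of dopamine neurons, had 23 to 43 reads in zidovudine libraries and 18 to 23 in DMSO libraries. tph-1, for the tryptophan hydroxylase of serotonin neurons, had 11 to 19 reads in zidovudine libraries, against 9, 12, 6 and 0 in DMSO libraries 1 to 4. cat-1, for the vesicular monoamine transporter that serves both transmitters, had 23 to 36 reads in zidovudine libraries, against 24, 3, 21 and 17 in DMSO libraries 1 to 4. unc-47, for the vesicular GABA transporter, had 16 to 20 reads in zidovudine libraries, against 15, 25, 15 and 62 in DMSO libraries 1 to 4. glr-1, for a glutamate receptor of the AMPA type, had 38, 7, 31 and 31 reads in zidovudine libraries 1 to 4, against 26, 14, 19 and 0 in DMSO libraries 1 to 4. In DMSO 4 a count of 0 allows up to 0.0686 CPM, which is 3 reads, by counting error alone. No direction was read from these 5 genes; without a filter on low values their limma adjusted p ran from 0.592 for unc-47 to 0.756 for glr-1.

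Among the receptor genes, every 95% interval of the 4 tested genes included 0. unc-29 and unc-38 encode subunits of the levamisole-sensitive acetylcholine receptor of body wall muscle. unc-29 was at 1.23, 1.09, 1.62 and 1.36 log2 CPM in zidovudine libraries 1 to 4, against 1.55, 1.36, 1.13 and 1.03 in DMSO libraries 1 to 4, and the ranges overlap throughout (log2 fold change 0.057, 95% interval -0.36 to 0.48). unc-38 was at 0.79, 0.64, 0.91 and 1.19 log2 CPM in zidovudine libraries 1 to 4, against 0.46, 0.45, 0.55 and 1.16 in DMSO libraries 1 to 4. The first 3 DMSO libraries lay below every zidovudine library and DMSO 4 lay near the top (log2 fold change 0.23, -0.28 to 0.73); without DMSO 4 the estimate was 0.40. unc-49, for the GABA receptor of muscle, was at 4.32 ± 0.028 log2 CPM with zidovudine and 4.17 ± 0.25 with DMSO (SD, n = 4 each), and DMSO 3 was above all other libraries. ric-3, for a chaperone of acetylcholine receptors, had the lowest fold change of the tested genes, -0.20 (-0.60 to 0.21), with DMSO 4 high at 3.44 log2 CPM and zidovudine 2 low at 2.32. That place rests on DMSO 4: without it the estimate for ric-3 was -0.012, and cha-1 was lowest at -0.24.

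Both voltage-gated calcium channel genes of the set were at higher levels with zidovudine at an unadjusted p under 0.05. unc-2 (chromosome X, 2710920 to 2763526, WBcel235) encodes the pore of the presynaptic channel that triggers transmitter release. It was at 3.91, 4.03, 4.24 and 4.05 log2 CPM in zidovudine libraries 1 to 4, against 3.68, 3.74, 3.74 and 3.38 in DMSO libraries 1 to 4. The groups do not overlap, with DMSO 4 lowest and zidovudine 3 highest, and the log2 fold change of 0.42 (SE 0.11, a fold of 1.34) was the largest of the tested genes. Without DMSO 4, among libraries that share 1 flow cell code, it was 0.34. egl-19 encodes the pore of the L-type channel, best known for its part in muscle contraction. It was at 4.26, 4.08, 4.27 and 4.10 log2 CPM in zidovudine libraries 1 to 4, against 4.00, 3.81, 4.11 and 3.78 in DMSO libraries 1 to 4. DMSO 3 overlapped the zidovudine range (log2 fold change 0.25, SE 0.10, limma adjusted p = 0.363). rgef-1 had a log2 fold change of 0.24 (95% interval -0.10 to 0.58), and DMSO 4 lay within its zidovudine range.

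**Figure D4:**
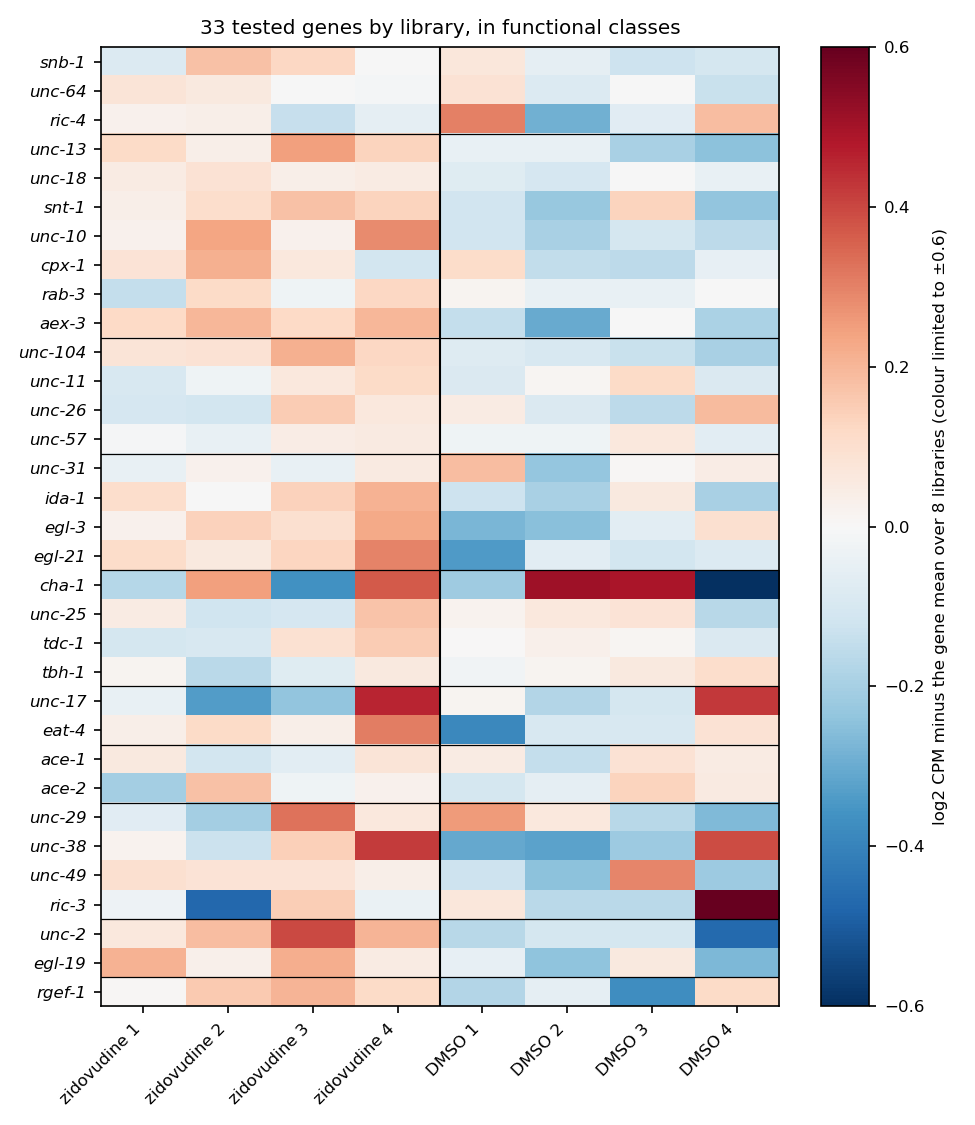
Deviation of each tested gene from its own mean over the 8 libraries (colour, log2 CPM, limited to ±0.6), with zidovudine libraries left and DMSO libraries right of the vertical line and the classes separated by horizontal lines. Fusion factors, peptide processing genes and calcium channels are mostly above their means with zidovudine, while cha-1, unc-17 and ric-3 spread widely within both groups and unc-38 is low in DMSO 1 to 3 and high in DMSO 4.

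The libraries of a group did not behave alike. The median deviation of the 33 genes from their own means was 0.028, 0.055, 0.080 and 0.12 in zidovudine libraries 1 to 4, against -0.053, -0.097, -0.043 and -0.078 in DMSO libraries 1 to 4. In zidovudine 4, 28 of the 33 genes were above their means, and in DMSO 2, 6 were. DMSO 4 held the lowest DMSO value of 14 of the 38 genes and the highest of 9.

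Fold changes moved with exon length over all genes, and libraries of a group differed in this. Genes of 5000 nt or more had median deviations from their own means of 0.019, -0.044, 0.14 and 0.11 in zidovudine libraries 1 to 4. In DMSO libraries 1 to 4 these deviations were -0.070, -0.020, -0.015 and -0.14. The tested genes of the set had a median exon length of 2490 nt, against 1438 nt for all tested genes. Over all tested genes the median log2 fold change was -0.099 below 1000 nt, 0.015 from 1000 nt, 0.043 from 2000 nt, 0.060 from 3000 nt and 0.11 from 5000 nt upward. Of the 5 genes of the set in the last range, unc-2, unc-13, unc-104 and egl-19 were above that median, at 0.25 to 0.42, and unc-31 was below it. Both genes under 1000 nt, snb-1 and cpx-1, had positive fold changes in a range whose median was negative. egl-21 has 1696 nt of exon, and its log2 fold change of 0.30 stood beside the median of 0.015 for genes of 1000 to 2000 nt.

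**Figure D5:**
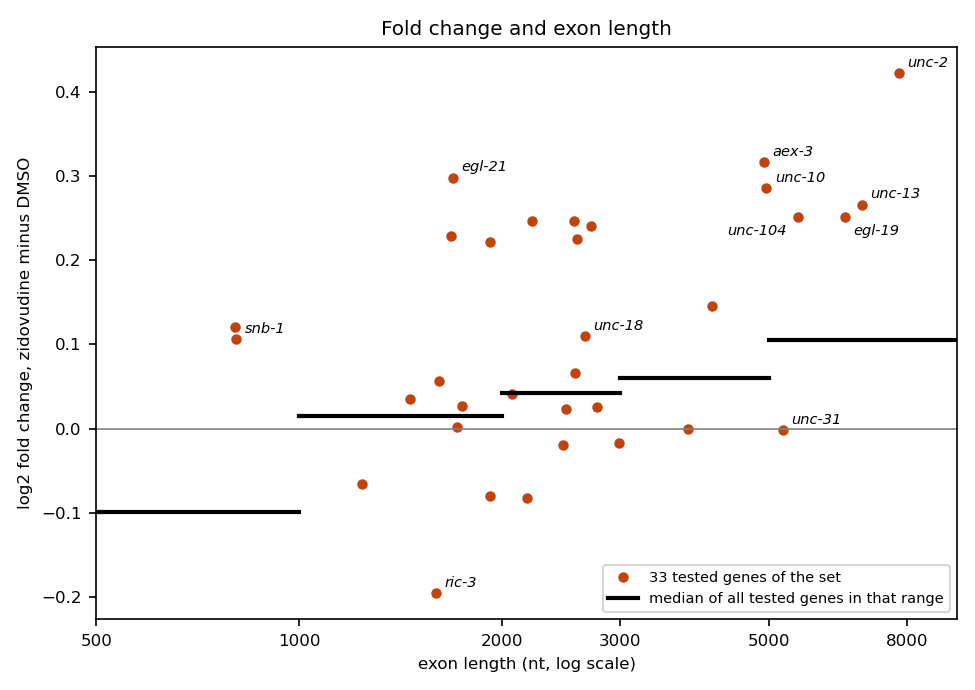
Log2 fold change (y axis, zidovudine minus DMSO) against exon length (x axis, nt, log scale) for the 33 tested genes of the set, with black lines for the median of all tested genes in each range of length. The line climbs from -0.099 below 1000 nt to 0.11 from 5000 nt, and unc-2, aex-3, unc-10 and egl-21 stand farthest above it.

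With each library's trend on exon length removed, the median of the 33 genes was 0.062, beside a median of 0.0041 over all tested genes. unc-2 was then at 0.31 (limma adjusted p = 0.253), egl-21 at 0.27 (0.201), aex-3 at 0.23, egl-3 at 0.20 and ida-1 at 0.18. unc-13 and unc-104 were both at 0.16, egl-19 was at 0.15, and snb-1 was at 0.18. The groups remained apart for 4 genes, aex-3, unc-104, egl-21 and unc-2, with 3.56% of all genes placed so. At an unadjusted p under 0.05, 1 gene, tbh-1, was lower, where 732 of the 12376 tested genes with a length were. At that p, 5 genes were higher, against 6.26% of all genes. The 5 were ida-1, egl-3, egl-21, unc-2 and snb-1, of which snb-1 had not been below that p without the correction. unc-13, unc-10, aex-3, unc-104 and egl-19 were no longer below it, which leaves no fusion factor and 1 of the 2 calcium channel genes.

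Other genes of the same pathways came from 8 lists that held 185 genes, of which 148 were tested. No gene of these lists passed the adjusted threshold in limma, 25 were higher and 0 lower at an unadjusted p under 0.05, and 109 were above 0, with a median log2 fold change of 0.091. These are 16.9% higher and 73.6% above 0, beside 6.28% and 52.3% of all tested genes. With the length trend removed, 11 of the 148 were higher at that p, a share near the 6.26% of all genes. Then 96 of the 148 were above 0, beside 6311 of the 12376 tested genes with a length. The median was 0.046, beside 0.0041. The 2 genes with the smallest p in each list are named. Among other active zone genes, syd-2, for the scaffold liprin-alpha, was at 5.27, 5.12, 5.40 and 5.23 log2 CPM in zidovudine libraries 1 to 4, against 4.91, 4.96, 4.91 and 4.89 in DMSO libraries 1 to 4. These groups do not overlap, and the log2 fold change was 0.34 (SE 0.078, limma adjusted p = 0.108). With sample weights syd-2 was past the threshold (0.37, limma adjusted p = 0.0200). It also passed with DMSO 4 and zidovudine 2 both left out (0.38, limma adjusted p = 0.0328). In each of these settings 148 of all tested genes passed, against 21 in the main test. rpm-1, for a presynaptic ubiquitin ligase, was at 0.31, and at 0.17 with the length trend removed.

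Beside 52.3% of all tested genes above 0, the list of other dense core vesicle genes had 11 of 13 tested members above 0 (median 0.14). Of these, sbt-1, for the chaperone of the EGL-3 convertase, was at 0.23 and the GTPase gene unc-108 at 0.14. Endocytosis and axonal transport had 16 of 18 above 0 (median 0.11), with the ankyrin gene unc-44 at 0.15 and the kinase gene unc-51 at 0.17; unc-44 was at -0.038 with the length trend removed. Other channel genes had 16 of 19 above 0 (median 0.14). The potassium channel gene shk-1 was at 3.28 ± 0.068 log2 CPM with zidovudine and 2.87 ± 0.067 with DMSO (SD, n = 4 each; log2 fold change 0.40, limma adjusted p = 0.173), and the T-type calcium channel gene cca-1 was at 0.34.

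Beside the same 52.3% of all tested genes, other receptors for GABA, glutamate and monoamines had 21 of 27 above 0 (median 0.16). Among them mgl-2, for a metabotropic glutamate receptor, was at 0.47. lgc-35, for a GABA-gated channel, was at 0.84 (95% interval 0.28 to 1.41, limma adjusted p = 0.239). It averaged 0.52 log2 CPM with zidovudine and -0.32 with DMSO, so it reached the tested level only through its zidovudine libraries. Other acetylcholine receptor genes had 12 of 16 above 0 (median 0.095), with the muscarinic receptor gene gar-3 at 0.44 and the receptor subunit gene lev-1 at 0.24. The G protein genes that control release had 11 of 16 above 0 (median 0.061), with the phospholipase C gene egl-8 and the exchange factor gene unc-73 at 0.17 and 0.16; with the length trend removed they were at 0.076 and 0.031. The list of other synthesis, uptake and breakdown genes had 9 of 19 above 0 and a median of -0.017. In it the glutamate transporter genes glt-1 and glt-3 were at 0.19 and -0.44. The level of glt-3 was 1.86 log2 CPM in DMSO 4, against 0.95 to 1.14 in DMSO 1 to 3. Without DMSO 4 the estimate for glt-3 was -0.24. With the length trend removed, the median was 0.054 for active zone genes, with 12 of 20 above 0. It was 0.11 for dense core vesicle genes (9 of 13) and 0.049 for endocytosis and transport (13 of 18). For channels it was 0.035 (12 of 19), and for the receptors for GABA, glutamate and monoamines 0.14 (19 of 27). It was 0.048 for acetylcholine receptors (12 of 16) and 0.017 for G protein genes (9 of 16). For synthesis, uptake and breakdown it was 0.0038 (10 of 19). Of all tested genes with a length, 6311 of 12376 were then above 0.

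Markers of cell types were set beside the set. Of 10 tested neuronal markers outside the set, 5 were above 0, with a median log2 fold change of 0.019. At an unadjusted p under 0.05, 3 were higher and 0 lower, beside 6.28% higher and 5.48% lower of all tested genes. With the length trend removed, 2 were higher at that p, beside 6.26%. Some of these markers were also in the lists of other pathway genes. Among them were unc-44 and sbt-1, which belong to the 3 markers higher before the length trend was removed. The neuronal markers summed to 324 to 338 CPM in zidovudine libraries and 292 to 334 CPM in DMSO libraries. The highest was unc-44, at a mean of 7.20 log2 CPM. Body wall muscle markers had 8 of 10 above 0 (median 0.13), with sums of 4409 to 5350 CPM in zidovudine libraries and 4061 to 4961 CPM in DMSO libraries. All 7 tested pharynx markers were above 0 (median 0.41), with sums of 151 to 194 CPM in zidovudine libraries, all above the 119.3 to 139.2 CPM of DMSO libraries. Embryo and eggshell markers had 7 of 8 above 0 (median 0.20; 3835 to 4646 CPM in zidovudine libraries, 3660 to 4104 CPM in DMSO libraries). Intestine markers had 6 of 7 above 0 (median 0.18; 1218 to 1506 CPM in zidovudine libraries, 1049 to 1327 CPM in DMSO libraries), and germ line and oocyte markers 7 of 10 (median 0.083; 5925 to 7112 CPM in zidovudine libraries, 5574 to 6488 CPM in DMSO libraries). Hypodermis markers had 2 of 7 above 0 (median -0.14; 771 to 814 CPM in zidovudine libraries, 771 to 959 CPM in DMSO libraries), and sperm markers 0 of 6 (median -0.30; 22.6 to 29.9 CPM in zidovudine libraries, 26.9 to 37.5 CPM in DMSO libraries). With the length trend removed, the medians were -0.040 for neuronal markers (4 of 10 above 0), 0.016 for body wall muscle (6 of 10), 0.31 for pharynx (7 of 7) and 0.16 for embryo and eggshell (6 of 8). They were 0.18 for intestine (6 of 7), 0.017 for germ line and oocytes (5 of 10), -0.14 for hypodermis (0 of 7) and -0.21 for sperm (0 of 6). No marker of these 8 lists was at 0 reads in every library, and the part of these cell types in the values of the set was not tested.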

How the data were processed

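Directional libraries of oligo-dT captured RNA were sequenced on a NovaSeq instrument, per the labels' protocols. The authors deposited 1 table for all samples, whose columns are headed CPM but hold log2 CPM, since many values are negative. Per the submitters' processing notes, edgeR 3.26.8, HISAT2 2.1.0, limma 3.40.6, FastQC, HTSeq 0.11.0 and Trimmomatic 0.32 were used, with no roles stated. Genome build and strand setting: not given in the sources used here. On the linear scale, values above the shared lowest value (-4.39) came in whole steps, 100% of them within 0.05 reads. This gave the reads of each library and the prior, equal to 2 reads in a library of mean effective size, which pulls fold changes of low genes toward 0.

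The test was limma-trend (limma 3.58.1, R 4.3.3, robust, two-sided), with group as the single term, on log2 CPM of the 12382 genes that averaged 0 or more, followed by Benjamini-Hochberg adjustment. The scripts were tested on simulated data. Positions and exon lengths came by gene ID from Ensembl release 115 (WBcel235), with lengths for 12376 tested genes. The length trend was a lowess curve of each library's deviations on log2 exon length. Libraries of a group differed beyond sampling noise (chi-square per degree of freedom 14.1 to 67.2). The genes, classes and lists were chosen with earlier results of these data known. Named genes were all 38 of the set and the 2 with the smallest p in each other list; 181 of the 185 listed genes were in the table. The 19 other settings comprise scalings, variance models, filters, the prior, weights, a replicate block, left-out libraries and the length trend.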

Additional observations from a re-analysis of the deposited data

Results flagged for a closer look

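In 3 of the 76 groups of 4 libraries examined for the 38 genes, 1 library stood apart from the other 3, where chance places about 1 in 20. unc-38 was at 1.16 log2 CPM in DMSO 4, against 0.45 to 0.55 in the other DMSO libraries. unc-2 was at 3.38 log2 CPM in DMSO 4, against 3.68 to 3.74 in the other DMSO libraries. glr-1 was at -1.90 log2 CPM in zidovudine 2, which is 7 reads, against -0.55 to -0.48 in the other zidovudine libraries. DMSO 4 was alone in its flow cell code, so the flow cell and that library cannot be told apart.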

How the results depend on the processing

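No gene of the set passed the threshold in 18 of the 19 other settings, voom on the recovered reads among them, and 1, egl-21, passed with sample weights. The count over all genes, 21 in the main test, was 13 with quantile normalization (6 higher, 7 lower), 12 with library totals as the only scaling, 4 without a variance trend, 54 at a threshold of 0.1, and 148 both with sample weights and with DMSO 4 and zidovudine 2 left out. In each of these last 2 settings 1 other pathway gene, syd-2, passed. Leaving out 1 library gave 3 to 41 genes: 3 without DMSO 1, 9 without DMSO 2, 32 without DMSO 3, 34 without DMSO 4, and 6, 41, 5 and 6 without zidovudine 1 to 4. The median of the set was 0.071 (without zidovudine 2) to 0.127 (without DMSO 1) with 1 library left out, and 0.0616 with the length trend removed. The cause of these shifts was not tested.

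With the replicate number as a block, 9 genes passed. Same-numbered libraries did not deviate together, with correlations of 0.067, -0.18, 0.14 and -0.32 for numbers 1 to 4, and 1 of 4 zidovudine libraries was closest to its own number. The block changed no call of the set.

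Some estimates changed sign, none of them called; most were near 0, and ric-3, the lowest in the main test at -0.20, was not. With quantile normalization unc-26 was at 0.0132, unc-31 at 0.03, tdc-1 at -0.0106 and ace-1 at 0.00385, and with library totals unc-25 was at -0.00659. With sample weights unc-26 was at 0.0848, unc-31 at 0.0249, cha-1 at -0.266, unc-25 at -0.0306, unc-17 at 0.0392, ace-1 at 0.00744 and ric-3 at 0.0254. With DMSO 4 and zidovudine 2 left out unc-26 was at 0.0985, unc-31 at 0.00468, cha-1 at -0.317, unc-25 at -0.0135, unc-17 at 0.147, ace-1 at 0.0257 and ric-3 at 0.112. With the length trend removed unc-11 was at -0.0248, unc-25 at -0.0222, tdc-1 at -0.0212 and unc-44 at -0.0381. Leaving out 1 library gave -0.171 to 0.0241 for ric-4, -0.000635 to 0.0893 for rab-3, -0.00658 to 0.0657 for unc-11, -0.0519 to 0.0638 for unc-26, -0.0813 to 0.059 for unc-31 and -0.241 to 0.217 for cha-1. It gave -0.053 to 0.0419 for unc-25, -0.024 to 0.0627 for tdc-1, -0.245 to 0.0486 for unc-17, -0.0701 to 0.0136 for ace-1, -0.079 to 0.0486 for ace-2 and -0.0404 to 0.151 for unc-29. The depth of whole-worm libraries leaves genes of few reads, such as cha-1 with 46 to 124 in a library, with wide intervals.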
